A study of Mus musculus with 18 samples.

Results

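The CXC chemokines are small secreted proteins that steer white blood cells, and 10 of their genes were followed here in macrophages of the mouse synovium, the lining tissue of joints. The genes were selected by symbol as *Cxcl1*, *Cxcl2*, *Cxcl3*, *Cxcl9*, *Cxcl10*, *Cxcl12*, *Cxcl13*, *Cxcl14*, *Cxcl16* and *Pf4* (which encodes CXCL4), out of 24421 gene symbols in the files. All 10 had counts, and 9 passed the filter on low counts and could be tested, the exception being *Cxcl3*, with 44 counts over the 18 libraries. Macrophages of C57BL/6 WT mice (a C57BL/6J background in the study's methods) were sorted by surface protein into LYVE1+CX3CR1+ cells (gated as MHCII- and Ly6C-), MHCII+CD11c- cells and MHCII+CD11c+ cells, and bulk RNA-seq of total RNA was run on every sort. Mice were either untreated or had received immune complexes (IC) of ovalbumin and rabbit antibody to ovalbumin by vein 8 h earlier, which gave 6 groups of 3 libraries. A library held the cells of several pooled legs, the study's methods give 1 range of adult ages for all mice and none for each library, and *Fcgr2b*-/- samples of the study are left aside.

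CXC chemokines fall into groups by the receptor they bind and the cells they draw. CXCL1, CXCL2 and CXCL3 bind CXCR2 and recruit neutrophils, CXCL9 and CXCL10 are induced by interferons and bind CXCR3 on activated T cells, CXCL12 binds CXCR4 and retains stem cells, B cells and neutrophils in their niches, and CXCL13 binds CXCR5 and gathers B cells in lymphoid follicles. CXCL16 is made as a membrane protein that acts as a scavenger receptor until it is shed as a ligand of CXCR6, CXCL14 is expressed in many healthy tissues, and PF4 is best known from platelet granules but is also transcribed by tissue macrophages.

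In GRCm38 (mm10), 7 of the 10 genes lie on chromosome 5. *Pf4* (chr5:90772435-90773383), *Cxcl3* (chr5:90786103-90789600), *Cxcl1* (chr5:90891241-90893115) and *Cxcl2* (chr5:90903871-90905938) lie in this order on the plus strand. *Cxcl9* (chr5:92321347-92328079) and *Cxcl10* (chr5:92346638-92348889) lie close together on the minus strand, and *Cxcl13* (chr5:95956951-95961068) is on the plus strand. *Cxcl12* (chr6:117168535-117181367, plus strand), *Cxcl14* (chr13:56288643-56296551, minus strand) and *Cxcl16* (chr11:70453983-70459984, minus strand) are on other chromosomes. These are GENCODE M21 gene bounds.

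The promoters of the neutrophil chemokines are shown first, because *Cxcl1* and *Cxcl2* both rose in the mean over the subsets after IC. The RefSeq promoter table of GRCm38.p6 held windows for 9 of the 10 genes. Capitals mark matches to the κB consensus, the element bound by NF-κB, in the 120 bases before the annotated start:
Cxcl1 (chr5:90891125-90891244, plus strand): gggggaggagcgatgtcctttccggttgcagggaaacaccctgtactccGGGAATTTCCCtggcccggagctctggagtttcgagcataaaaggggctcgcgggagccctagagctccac
Cxcl2 (chr5:90903779-90903898, plus strand): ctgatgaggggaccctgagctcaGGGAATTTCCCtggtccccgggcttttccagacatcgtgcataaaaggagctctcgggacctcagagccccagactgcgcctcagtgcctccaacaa
Cxcl3 (chr5:90785981-90786100, plus strand): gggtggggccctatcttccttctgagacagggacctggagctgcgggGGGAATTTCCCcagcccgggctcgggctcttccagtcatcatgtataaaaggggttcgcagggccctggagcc
The same 11 letters, GGGAATTTCCC, stood in all 3 windows, with the first base 71, 97 and 73 bases before the start of *Cxcl1*, *Cxcl2* and *Cxcl3*. They hold 2 overlapping matches of the 10-base consensus, 1 on each strand. The distances are counted from the RefSeq starts, which differ for these 3 genes from the GENCODE bounds given above. The *Cxcl2* window ends at 90903898, inside the GENCODE gene, which starts at 90903871.

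The promoter of *Cxcl10* is shown for comparison with that of *Cxcl13*, since both transcripts were low in LYVE1+CX3CR1+ cells, and *Cxcl13* passed the test for a change with IC while *Cxcl10* did not. Each line gives 250 bases before the start, with capitals for κB, AP-1 (TGANTCA), the interferon element ISRE (GAAA, any 2 bases, GAAA) and the STAT element GAS (TTCNNNGAA), searched on both strands:
Cxcl10 (chr5:92348890-92349139, minus strand): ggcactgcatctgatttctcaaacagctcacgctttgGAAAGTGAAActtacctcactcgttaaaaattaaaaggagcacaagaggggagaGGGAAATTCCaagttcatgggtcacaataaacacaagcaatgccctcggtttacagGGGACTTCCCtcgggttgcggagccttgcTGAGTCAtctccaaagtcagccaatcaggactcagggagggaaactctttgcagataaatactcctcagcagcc
Cxcl13 (chr5:95956689-95956938, plus strand): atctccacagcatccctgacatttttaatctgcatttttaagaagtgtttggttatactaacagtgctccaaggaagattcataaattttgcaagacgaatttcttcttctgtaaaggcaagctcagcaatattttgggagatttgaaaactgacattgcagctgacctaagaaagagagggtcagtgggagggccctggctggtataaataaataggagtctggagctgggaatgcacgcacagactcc
The *Cxcl10* window held 1 ISRE, 2 κB matches and 1 AP-1 match, and that of *Cxcl13* held none of these letters. Over 32851 windows of the same length, 3.90% held a κB match, 6.75% AP-1, 2.98% ISRE and 7.02% GAS. Of the other members with a window, *Cxcl14* had 1 ISRE and 1 GAS match, and *Cxcl9*, *Cxcl12* and *Pf4* had no match to these motifs. A match describes letters in the window and not a site in use.

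Library totals ranged from 245903 to 2172358 counts (median 1526179.5), and both totals under 400000 belonged to MHCII+CD11c- cells after IC (381217 and 245903 in replicates 1 and 2), where 3 counts correspond to 7.84 and 11.3 CPM. CPM are the counts of a gene scaled to the size of its library, here with TMM factors, which adjust for library composition. The sort genes went with the labels: *H2-Ab1*, an MHC class II gene, lay between 20.1 and 44.3 CPM in LYVE1+CX3CR1+ libraries and between 2670 and 7825 CPM in the others. They also moved with treatment inside the MHCII+ gates, where *Lyve1* and *Cx3cr1* both rose in MHCII+CD11c+ cells (edgeR quasi-likelihood test, adjusted over all genes). In MHCII+CD11c- cells *H2-Ab1* fell and *Itgax*, which encodes CD11c, rose (same test). The 10 macrophage markers, *Csf1r* and *Adgre1* among them, had counts in every group and summed to 7630–18264 CPM per library. Markers of other cell types were unevenly spread: the neutrophil list summed to 13.2–188 CPM in LYVE1+CX3CR1+ libraries, 821–4856 CPM in MHCII+CD11c- and 21.0–2671 CPM in MHCII+CD11c+. The lymphocyte list summed to 202–346 CPM in MHCII+CD11c- libraries, where *Cd79a*, a B cell gene, lay between 52.7 and 123 CPM and the T cell genes *Cd3e*, *Cd3d* and *Cd3g* were at 0. In bulk RNA, fewer cells of a type and less RNA per cell cannot be told apart.

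**Figure D1:**
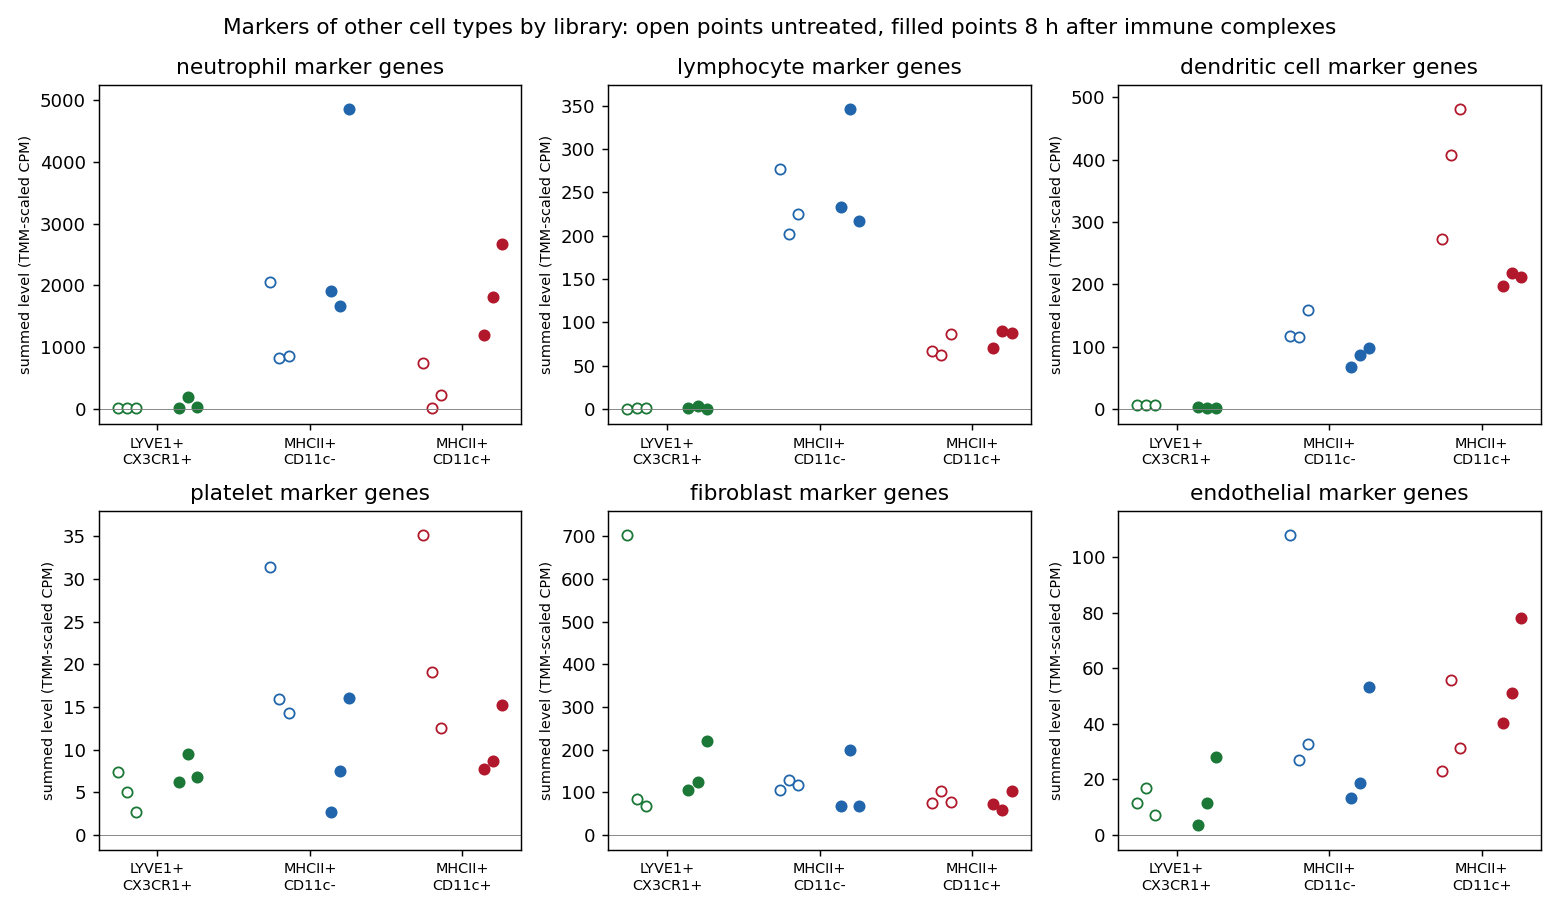
Summed level (TMM-scaled CPM) of marker lists of 6 other cell types in each of the 18 libraries, by subset, with open points for untreated and filled points for IC libraries. Neutrophil sums in MHCII+CD11c+ cells went from 21.0–749 to 1197–2671 CPM, while platelet sums stayed at or under 35.2 CPM in all libraries.

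Which chemokine transcripts these macrophages held was first read per length, dividing CPM by the length of the coding gene's exons in kb, since longer transcripts yield more fragments. By this measure *Pf4* was first and *Cxcl2* second in every group. The order depends on the lengths used, 700 bases for *Pf4* and 1859 for *Cxcl2*. In CPM not divided by length, mean *Cxcl2* was below *Pf4* in each untreated subset and above it after IC. The values after IC were 327 against 211 CPM in LYVE1+CX3CR1+, 434 against 330 in MHCII+CD11c- and 487 against 314 in MHCII+CD11c+ cells. In untreated cells *Pf4* reached 388 ± 138 CPM per kb (SD, n = 3) in LYVE1+CX3CR1+, 605 ± 174 in MHCII+CD11c- and 378 ± 154 in MHCII+CD11c+ cells, and *Cxcl2* reached 127 ± 12, 160 ± 25.1 and 127 ± 19.6 CPM per kb. *Pf4*, *Cxcl2* and *Cxcl16* together made up 78.2–95.8% of the summed CPM per kb of the 10 genes across the 18 libraries. *Cxcl16* and *Cxcl1* came next, and in each subset *Cxcl16* stood above *Cxcl1* when untreated and below it after IC. LYVE1+CX3CR1+ cells held 52.0 ± 4.42 against 33.3 ± 17.3 CPM per kb (n = 3) before and 59.9 ± 1.26 against 68.2 ± 22.1 after. In MHCII+CD11c- cells the values were 41.3 ± 12.5 against 28.0 ± 20.4 and 39.6 ± 5.46 against 77.1 ± 56.6. In MHCII+CD11c+ cells they were 33.2 ± 3.82 against 29.5 ± 7.90 and 46.8 ± 9.19 against 53.0 ± 10.1. The gaps after IC were smaller than the spread of *Cxcl1*, as were the untreated gaps in both MHCII+ subsets. *Cxcl10* came after these 4 in untreated cells of both MHCII+ subsets. *Cxcl13* went from last place in untreated MHCII+CD11c- cells, where it was not detected, to 38.6 ± 9.92 CPM per kb and 4.68% of the sum after IC.

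**Figure D2:**
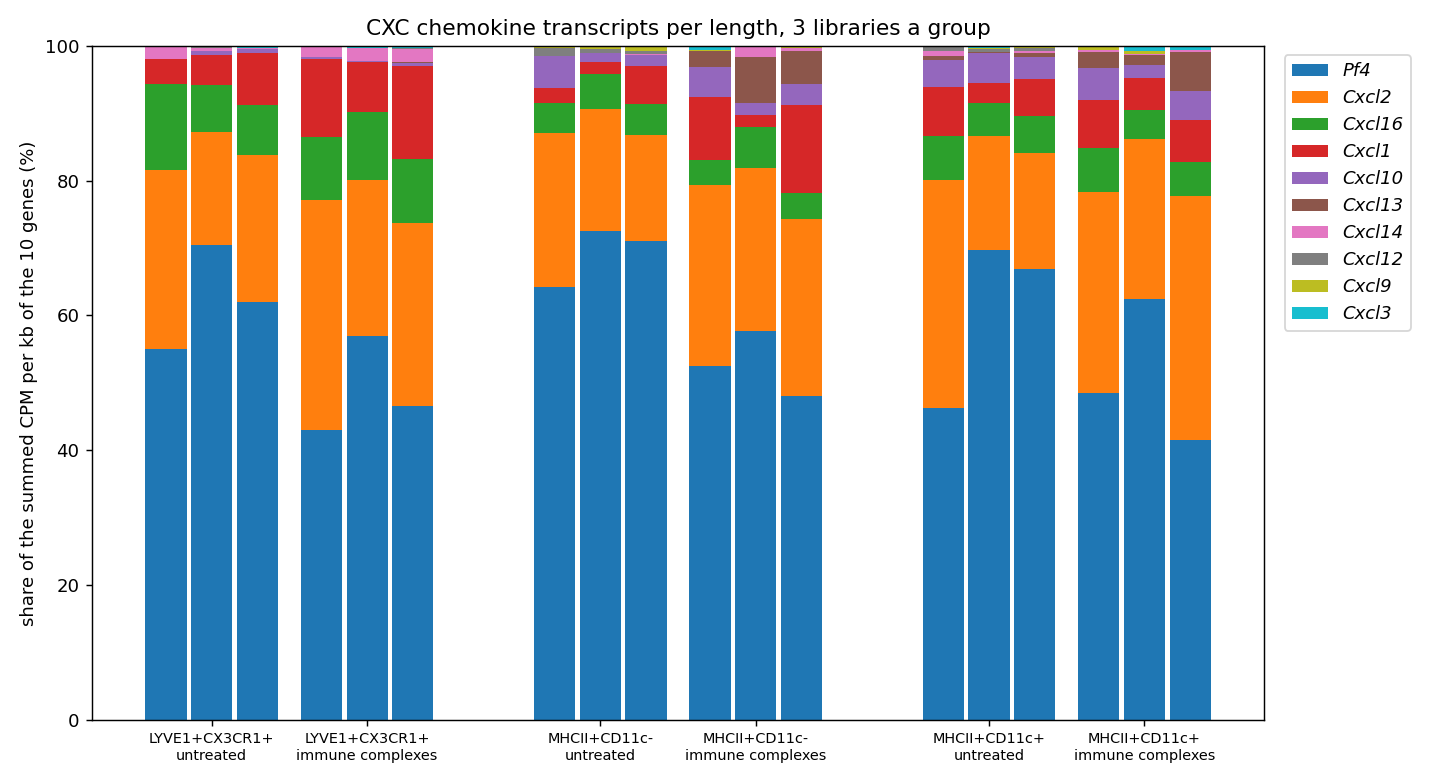
Share (%) of each gene in the summed CPM per kb of the 10 CXC chemokine genes, with 1 bar for each of the 18 libraries. *Pf4* and *Cxcl2* filled most of every bar, and the *Cxcl13* share was visible in the MHCII+ libraries after IC.

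The neutrophil chemokines *Cxcl1* and *Cxcl2* were transcribed in all subsets, and both rose with IC in the mean over the 3 subsets. The test of this mean counts libraries of different subsets as independent. Should same-numbered libraries share a pool of mice, its SE may be too small. The synovium was digested with collagenase before the sort, and 14 genes of a dissociation response list summed to 17240–27170 CPM per library. In the same mean over the 3 subsets, *Hspa1b* and *Hspa1a* of that list rose, *Btg2* fell and 11 were not called, where 6.21% of all genes were called. The part of the digestion in the levels of *Cxcl1* and *Cxcl2* was not tested. *Cxcl2* in MHCII+CD11c+ cells measured 277, 224 and 208 CPM in untreated libraries and 486, 398 and 577 CPM after IC. The groups did not overlap, and the rise was 2.06-fold (log2 fold change 1.04, SE 0.21, adjusted p = 0.0140, edgeR quasi-likelihood test over 10550 genes). Without untreated replicate 2 or 3 or IC replicate 3 of this subset the adjusted p was 0.102, 0.0975 or 0.136 (edgeR). In MHCII+CD11c- cells *Cxcl2* measured 273, 352 and 270 CPM before and 575, 305 and 421 CPM after, and in LYVE1+CX3CR1+ cells 220, 228 and 262 CPM before and 421, 250 and 311 CPM after. In both of these subsets the lowest IC library lay within the untreated range, and the adjusted p of edgeR was 0.218 (log2 fold change 0.55, SE 0.22) and 0.498 (log2 fold change 0.47, SE 0.21). Averaged over the 3 subsets, *Cxcl2* rose 1.61-fold (log2 fold change 0.69, SE 0.12, adjusted p = 8.49e-04, edgeR).

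*Cxcl1*, which shares its receptor with *Cxcl2* and acts on the same cells, was transcribed at a lower level. It measured 15.5, 31.3 and 48.5 CPM in untreated LYVE1+CX3CR1+ libraries and 73.3, 41.1 and 80.7 CPM after IC. MHCII+CD11c- libraries went from 14.0, 17.1 and 49.0 CPM to 102, 11.3 and 107 CPM, where the low value came from 3 counts in the shallowest library. MHCII+CD11c+ libraries went from 30.5, 19.7 and 34.2 CPM to 60.2, 40.9 and 50.6 CPM, with no overlap. No subset passed the threshold alone (log2 fold changes 1.02, 1.55 and 0.81, SE 0.44, 0.50 and 0.46, adjusted p = 0.476, 0.134 and 0.632, edgeR), and the mean over the 3 subsets did, at 2.18-fold (log2 fold change 1.13, SE 0.27, adjusted p = 0.0116, edgeR). Without replicate 2 of the MHCII+CD11c- IC libraries, the shallowest, the rise in that subset passed as well (log2 fold change 1.94, adjusted p = 0.0195, edgeR), while without both shallow libraries it did not (1.98, adjusted p = 0.0883, edgeR). With no filter on low counts the adjusted p in that subset was 7.17e-04 (edgeR), with the log2 fold change still at 1.55. That setting called 337 genes with IC in this subset, against 112 in the main fit. *Cxcl3*, the third ligand of CXCR2, had 0 to 9 counts per library and at most 7.84 CPM, too few to test.

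The neutrophil markers moved with IC in the same libraries, and their part in these rises was not tested. In MHCII+CD11c+ cells, where *Cxcl2* rose, the neutrophil sum went from a median of 220 to 1815 CPM and 4 of 11 tested list genes rose (*Lcn2*, *Csf3r*, *S100a8* and *Mmp8*). Of all genes tested, 0.673% were called there in either direction. In the mean over the 3 subsets, in which *Cxcl1* and *Cxcl2* passed, 7 of the 11 rose and 0 fell, where 6.21% of all genes were called. In untreated LYVE1+CX3CR1+ libraries, which held *Cxcl2* at 220–262 CPM, the neutrophil sum was 13.2–17.2 CPM and 8 of 13 list genes, *S100a8*, *Camp* and *Ltf* among them, were at 0. *Cxcr2*, the receptor for these ligands, was at 0 to 2.15 CPM in LYVE1+CX3CR1+ libraries and at 26.1–53.1 CPM in MHCII+CD11c- libraries after IC. Its change with IC did not pass in any subset (adjusted p = 0.101 in MHCII+CD11c+ cells, with log2 fold change 2.28 and SE 0.62, edgeR). *Cxcr1* was at 0 in all 18 libraries.

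*Cxcl13*, the B cell attractant, rose with IC in both MHCII+ subsets, from no count in MHCII+CD11c- cells, and had 1 count in LYVE1+CX3CR1+ cells. In MHCII+CD11c- cells it had 0 counts in each untreated library and 31.4, 52.7 and 49.1 CPM after IC, from 12, 14 and 49 counts. Against a floor of 3 counts per library this is at least 13-fold higher (adjusted p = 0.00105, edgeR quasi-likelihood test). In MHCII+CD11c+ cells it measured 2.63, 0.66 and 4.82 CPM before and 23.1, 14.9 and 57.3 CPM after, an 11.2-fold rise (log2 fold change 3.48, SE 0.67, adjusted p = 0.0140, edgeR), with adjusted p of 0.0989 without untreated replicate 2. The log2 fold change was 2.68 without IC replicate 3 (adjusted p = 0.212) and 4.16 without untreated replicate 3 (adjusted p = 0.0374, both edgeR). All IC libraries of both subsets lay above all untreated ones. In LYVE1+CX3CR1+ cells 5 of 6 libraries had 0 counts and replicate 3 after IC had 1, so that no change was detectable at this depth.

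After IC the group totals of *Cxcl13* stood at 75 counts in MHCII+CD11c-, 128 in MHCII+CD11c+ and 1 in LYVE1+CX3CR1+ cells, ratios of 262 (95% exact counting interval 45.6–10486) and 207 (36.5–8230) to the last group after scaling by library size. Both differences passed the test (adjusted p = 1.30e-05 and 8.61e-06, edgeR), and the MHCII+ subsets did not differ from each other beyond their spread (log2 fold change -0.45, SE 0.58, adjusted p = 0.773, edgeR). In untreated mice *Cxcl13* was also higher in MHCII+CD11c+ than in LYVE1+CX3CR1+ cells, at least 1.47-fold (adjusted p = 0.0116, edgeR, and 0.0624 without MHCII+CD11c+ replicate 3). The receptor gene *Cxcr5*, expressed by B cells, lay at 15.1–60.2 CPM in MHCII+CD11c-, 4.63–22.7 CPM in MHCII+CD11c+ and 0–0.63 CPM in LYVE1+CX3CR1+ libraries, and did not pass in any comparison of IC with untreated cells. The lymphocyte sum was 202–277 CPM before and 217–346 CPM after IC in MHCII+CD11c- cells. The fibroblast sum there, for a known source of CXCL13, was 105–128 CPM before and 68.0–200 CPM after. In MHCII+CD11c+ cells the lymphocyte sum was 62.5–86.8 CPM before and 71.0–90.4 CPM after. The fibroblast sum in these cells was 73.6–103 CPM before and 59.0–102 CPM after. The monocyte marker *Plac8* rose in both MHCII+ subsets (log2 fold changes 2.42 and 2.48, SE 0.57 each, adjusted p = 0.0355 and 0.0379, edgeR), and its part in the *Cxcl13* rise was not tested. Of the 7 tested monocyte list genes, 1 and 2 were called with IC in these subsets, where 1.06% and 0.673% of all genes were called.

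*Cxcl12*, the ligand of CXCR4, moved the other way. Untreated MHCII+CD11c- libraries held 52.3, 45.2 and 31.7 CPM and IC libraries 0, 7.53 and 6.01 CPM, without overlap. The level after IC was 0.111 of the untreated one (log2 fold change -3.17, SE 0.77, adjusted p = 0.0401, edgeR). This call was lost without any of the untreated replicates, IC replicate 1 or IC replicate 3 of the subset, without untreated MHCII+CD11c+ replicate 2 or 3 (adjusted p from 0.0523 to 0.112, edgeR), and without both shallow libraries together (0.197). MHCII+CD11c+ libraries went from 18.9, 22.4 and 16.9 CPM to 1.54, 4.72 and 2.44 CPM, also without overlap, with log2 fold change -2.62, SE 0.72 and adjusted p = 0.103 in this fit (0.00831 with the Wald test of DESeq2). LYVE1+CX3CR1+ libraries held at most 4.39 CPM in either condition. The mean over the 3 subsets passed (log2 fold change -2.27, SE 0.49, adjusted p = 0.00561, edgeR, and -3.37 without LYVE1+CX3CR1+ IC replicate 3), as did the mean over both MHCII+ subsets, a contrast added after the values were seen (log2 fold change -2.90, SE 0.53, adjusted p = 0.00147, edgeR).

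*Cxcr4* itself was the most abundant receptor of the list and rose with IC on average (log2 fold change 0.51, SE 0.12, adjusted p = 0.0106, edgeR), with group means of 94.0 to 186 CPM before and 152 to 232 CPM after. Of the 8 receptor genes, 4 were tested, and *Cxcr4* was the only change with IC. *Ackr3*, a scavenger receptor for CXCL12, stayed at or under 9.75 CPM, *Ackr1* had counts in 1 library, and *Cxcr6*, the receptor of CXCL16, was at 0 in all 18 libraries. *Cxcl12* is a known product of stromal cells. The endothelial sum was 26.9–108 CPM in untreated and 13.1–53.1 CPM in IC libraries of MHCII+CD11c- cells, and 23.1–55.9 and 40.1–78.0 CPM in MHCII+CD11c+ cells. The fibroblast sum in MHCII+CD11c- cells, given above, went with a median log2 fold change of -0.79 over 7 tested list genes, of which 0 were called, and 10 of 12 list genes had counts there when untreated (all but *Pdgfra* and *Thy1*). The median was -0.31 in MHCII+CD11c+ cells, again with 0 of 7 called, and the part of stromal cells in the *Cxcl12* fall was not tested. *Cd209a*, a dendritic cell marker, fell with IC in both MHCII+ subsets, and its part in the *Cxcl12* fall was not tested. It was the only called gene of 5 tested on the dendritic cell list in each subset, where 1.06% and 0.673% of all genes were called. *Dpp4*, whose product is a protease that trims and inactivates CXCL12, fell in the mean over the subsets (log2 fold change -1.79, SE 0.53, adjusted p = 0.0430, edgeR). But its log2 fold changes in MHCII+CD11c- and MHCII+CD11c+ cells were -0.03 (SE 0.65) and -1.18 (SE 0.49) and neither passed. *Dpp4* had no count in LYVE1+CX3CR1+ cells after IC, so the size of the mean fall depends on the prior count.

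The interferon-induced *Cxcl10* and *Cxcl9* separated the subsets and showed no called change with IC. *Cxcl10* measured 0, 6.27 and 4.85 CPM in untreated LYVE1+CX3CR1+ libraries, 46.5, 20.8 and 21.5 CPM in MHCII+CD11c- and 26.8, 48.6 and 31.8 CPM in MHCII+CD11c+ ones. It was lower in LYVE1+CX3CR1+ cells than in both (log2 fold changes -2.93 and -3.19, SE 0.62 and 0.60, adjusted p = 0.00235 and 2.24e-04, edgeR). After IC it measured 3.38, 0.53 and 4.32 CPM in LYVE1+CX3CR1+, 78.4, 18.8 and 41.1 CPM in MHCII+CD11c- and 63.2, 26.7 and 56.0 CPM in MHCII+CD11c+ libraries. The subset differences were then -4.04 and -4.07 on the log2 scale (SE 0.65 and 0.62, adjusted p = 1.14e-04 and 1.93e-05, edgeR), and in neither condition did LYVE1+CX3CR1+ libraries overlap the others. Within subsets the IC and untreated ranges of *Cxcl10* overlapped (log2 fold changes -0.45, 0.67 and 0.43, SE 0.76, 0.54 and 0.48, adjusted p = 0.955, 0.614 and 0.882 in LYVE1+CX3CR1+, MHCII+CD11c- and MHCII+CD11c+ cells, edgeR).

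*Cxcl9*, which shares the receptor CXCR3 with *Cxcl10*, had 0 counts in each untreated LYVE1+CX3CR1+ library. It measured 2.33, 6.11 and 13.3 CPM in untreated MHCII+CD11c- libraries, at least 3.94-fold higher (adjusted p = 0.0129, edgeR), and 1.58, 3.29 and 4.82 CPM in MHCII+CD11c+ ones, at least 1.76-fold higher (adjusted p = 0.0323, edgeR). Both calls rest on 20 and 18 counts in all, and they held in 2 and 1 of 6 fits that left out a library of the pair, with adjusted p from 0.0518 to 0.102 in the others (edgeR). After IC, MHCII+CD11c+ libraries held 9.26, 11 and 0 CPM and LYVE1+CX3CR1+ ones 0, 0 and 0.96 CPM, a ratio of 16.2 (95% exact counting interval 3.92–143, adjusted p = 0.0343, edgeR). These groups overlapped, and the call was lost without replicate 1 or 2 of either group (adjusted p from 0.0919 to 0.214, edgeR) and with a replicate block by pool (0.0787). *Cxcr3* was lower in LYVE1+CX3CR1+ than in MHCII+CD11c+ cells (at most 0.54 CPM against 3.15–8.68 CPM when untreated, adjusted p = 0.0274, edgeR).

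Other interferon-response genes did move. Of 23 tested genes of that list, 8 rose with IC on average over the subsets, among them *Irf7* (log2 fold change 1.10, SE 0.18, adjusted p = 3.23e-04) and *Rsad2* (1.30, SE 0.22, adjusted p = 4.56e-04), while 2 fell, *Irf1* (-0.57, SE 0.11, adjusted p = 0.00137) and *Gbp3* (-0.51, SE 0.15, adjusted p = 0.0374, all edgeR). IRF7 drives type I interferon genes, and IRF1 is an early target of interferon gamma. The median log2 fold change was 0.39 over the list and -0.01 over all genes tested, of which 6.21% were called in either direction. Between untreated subsets, 8 and 10 of the 23 genes were lower in LYVE1+CX3CR1+ than in MHCII+CD11c- and MHCII+CD11c+ cells, as *Cxcl9* and *Cxcl10* were, and none was higher. Of all genes tested, 11.4% and 21.8% were called in either direction in these comparisons. Of 25 genes of the NF-κB list, 4 rose with IC on average, *Il1b*, *Sod2*, *Tnfaip2* and *Icam1*, and none fell, where 6.21% of all genes were called in either direction. The median log2 fold change was 0.01 over that list. *Il1b*, the inflammatory cytokine, rose in LYVE1+CX3CR1+ (log2 fold change 1.61, SE 0.37, adjusted p = 0.0452) and MHCII+CD11c- cells (1.67, SE 0.34, adjusted p = 0.0121, both edgeR).

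No comparison of IC with untreated cells called *Cxcl14*, *Cxcl16* or *Pf4*. *Cxcl16*, the scavenger receptor and CXCR6 ligand, measured 153, 139 and 129 CPM in untreated LYVE1+CX3CR1+ libraries and 77.8, 94.7 and 96.4 CPM in MHCII+CD11c+ ones, 1.57-fold higher in the former without overlap (log2 fold change 0.65, SE 0.20, adjusted p = 0.0185, edgeR). Without LYVE1+CX3CR1+ replicate 1 or MHCII+CD11c+ replicate 1 of the untreated libraries this adjusted p was 0.0796 or 0.0936 (edgeR). After IC it measured 165, 161 and 158 CPM in LYVE1+CX3CR1+, 118, 113 and 90.1 CPM in MHCII+CD11c- and 154, 107 and 118 CPM in MHCII+CD11c+ libraries, and no change with IC passed (adjusted p = 0.401 in the mean over the subsets, with log2 fold change 0.20, SE 0.12, and 0.423 in MHCII+CD11c+ cells, with log2 fold change 0.48, SE 0.20, edgeR). The gene of its sheddase, *Adam10*, was transcribed at group means of 185 to 295 CPM and did not change with IC in any called comparison.

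*Cxcl14*, with *Cxcl16*, was a member called higher in LYVE1+CX3CR1+ cells. It measured 14.8, 7.52 and 2.69 CPM there when untreated and 19.7, 21.6 and 22.6 CPM after IC, groups that did not overlap but whose difference did not pass (log2 fold change 1.36, SE 0.70, adjusted p = 0.617, edgeR). After IC, MHCII+CD11c+ libraries held 6.17, 1.57 and 4.26 CPM, which was lower (log2 fold change 2.47, SE 0.79, adjusted p = 0.0273, edgeR), and MHCII+CD11c- libraries held 0, 18.8 and 5.01 CPM. The call against MHCII+CD11c+ cells held only without MHCII+CD11c+ replicate 1 among the 6 fits that left out a library of the pair, with adjusted p from 0.0542 to 0.121 in the other 5 (edgeR).

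*Pf4* ranged from 142 to 527 CPM over the 18 libraries. In untreated cells it measured 171, 364 and 281 CPM in LYVE1+CX3CR1+, 289.5, 527 and 455 CPM in MHCII+CD11c- and 142, 346 and 305 CPM in MHCII+CD11c+ libraries. After IC the values were 199.6, 233 and 200.2 CPM in LYVE1+CX3CR1+, 424, 275 and 290.4 CPM in MHCII+CD11c- and 298, 396 and 249 CPM in MHCII+CD11c+ libraries. In this fit no comparison passed for *Pf4* (LYVE1+CX3CR1+ against MHCII+CD11c- untreated: log2 fold change -0.64, SE 0.28, adjusted p = 0.159, edgeR), but some alternatives called it. With no filter on low counts, *Pf4* was lower in untreated LYVE1+CX3CR1+ and MHCII+CD11c+ than in MHCII+CD11c- cells (log2 fold changes -0.59 and -0.66, adjusted p = 0.0267 and 0.0193, edgeR). After IC it was then lower in LYVE1+CX3CR1+ than in MHCII+CD11c- and MHCII+CD11c+ cells (-0.58 and -0.53, adjusted p = 0.0471 and 0.0430, edgeR). A replicate block by pool called the same 4 comparisons (adjusted p from 0.0102 to 0.0198, edgeR). The 11 platelet genes, *Itga2b*, *Gp1bb* and *Ppbp* among them, summed to 2.61–35.2 CPM in the same libraries, and *Gp1ba*, *Gp5* and *Gp6* were at 0 in untreated MHCII+ libraries. Of the CXC ligands outside the 10, *Cxcl5*, *Cxcl15* and *Cxcl17* had no count, *Cxcl11* at most 4 and *Ppbp*, the platelet ligand CXCL7, at most 10 counts in a library.

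**Figure D3:**
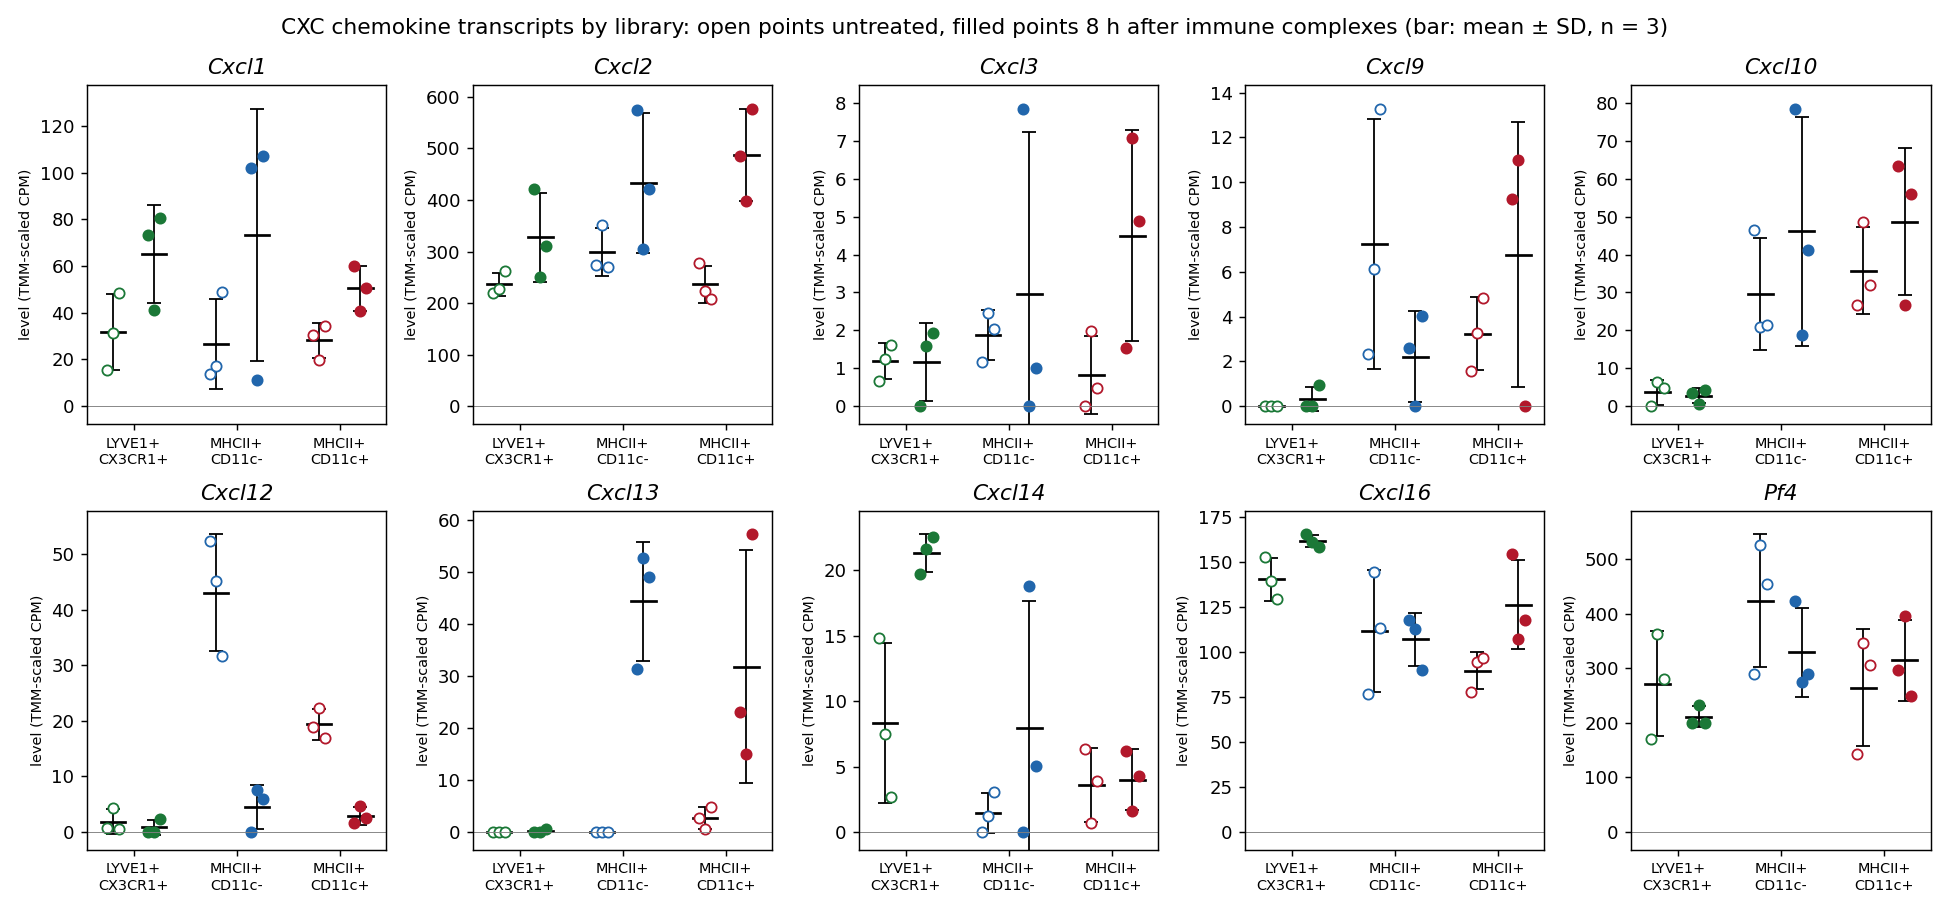
Level (TMM-scaled CPM) of each of the 10 CXC chemokine genes in every library, by subset, with open points for untreated and filled points for IC libraries and bars for the mean ± SD (n = 3, lower ends under 0 partly cut by the axis). *Cxcl13* went from 0–4.82 to 14.9–57.3 CPM and *Cxcl12* from 16.9–52.3 to 0–7.53 CPM in the MHCII+ subsets, and *Cxcl10* stayed at or under 6.27 CPM in LYVE1+CX3CR1+ cells.

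Over the 9 tested members, the comparisons of IC with untreated cells called 0 in LYVE1+CX3CR1+ cells, where 0.464% of all genes tested were called, 2 in MHCII+CD11c- cells (*Cxcl13* up, *Cxcl12* down, background 1.06%) and 2 in MHCII+CD11c+ cells (*Cxcl2* and *Cxcl13* up, background 0.673%). In LYVE1+CX3CR1+ cells, *Cxcl1* and *Cxcl2* had an unadjusted p under 0.05, and DESeq2 also called 0. The mean over the 3 subsets called 4 members (*Cxcl1*, *Cxcl2* and *Cxcl13* up, *Cxcl12* down) against a background of 6.21%, and the mean over both MHCII+ subsets the same 4 against 4.09%. Both means count libraries of different subsets as independent. Correlations gave a hint that they are not. Within a treatment the median was 0.05 for same-numbered and -0.03 for other libraries, and 15 of 18 correlated best with 1 of their own number. The SE of both means may therefore be too small, and the replicate block by pool could not test them. The median log2 fold change over the members was 0.60 in the mean of the 3 subsets, against -0.01 over all genes. The *Cxcl13* call in the mean of the 3 subsets was lost without LYVE1+CX3CR1+ IC replicate 3, which holds the only count of that subset (adjusted p = 1.0), and the *Cxcl12* call without LYVE1+CX3CR1+ untreated replicate 2 (adjusted p = 0.148, both edgeR). The *Cxcl12* call in MHCII+CD11c- cells held in 1 of 6 fits that left out a library of the pair, the *Cxcl2* call in MHCII+CD11c+ cells in 3 of 6, and the *Cxcl13* calls in 6 of 6 and 4 of 6.

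**Figure D4:**
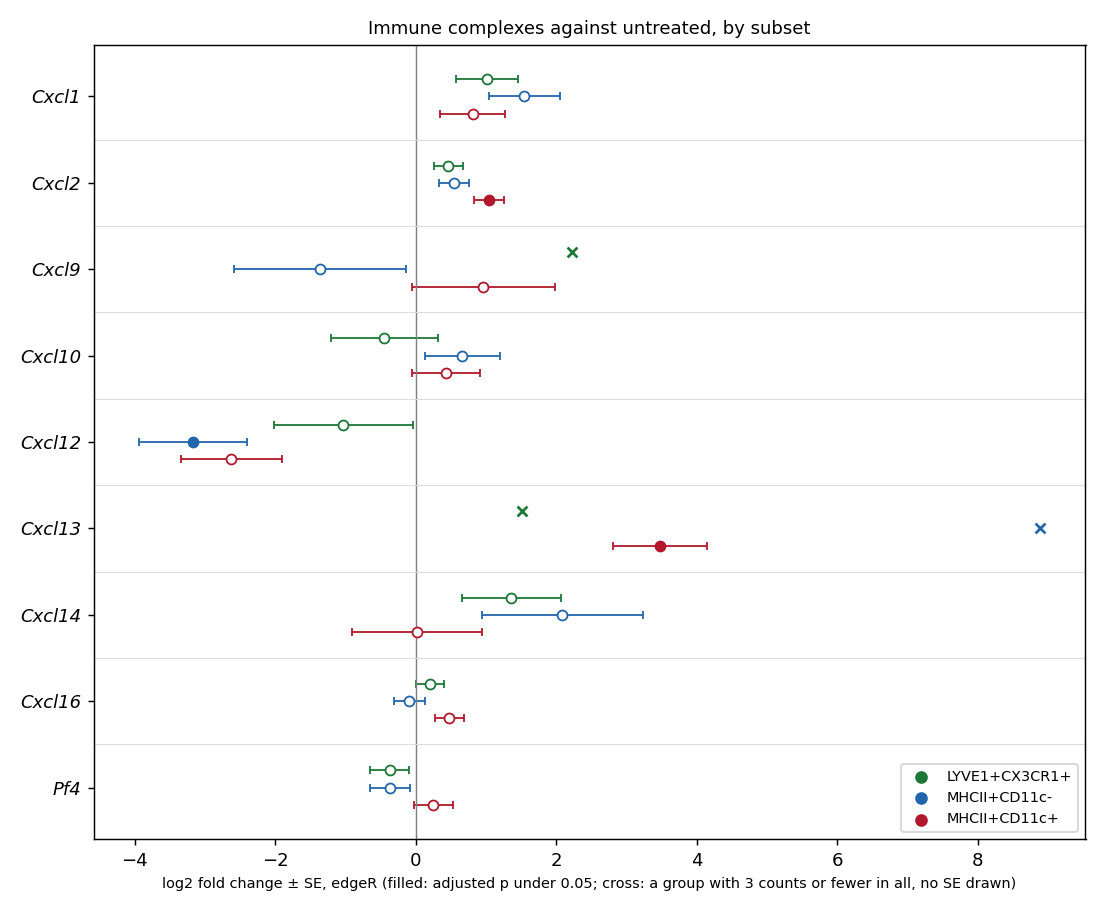
Log2 fold change with IC (± SE, edgeR) of the 9 tested CXC chemokine genes in each subset, with filled points past an adjusted p of 0.05 and crosses, without an SE, where a group held 3 counts or fewer. *Cxcl1* and *Cxcl2* lay above 0 and *Cxcl12* below 0 in all 3 subsets, though not all passed, and the place of a cross depends on the prior count and bounds no fold.

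Whether the subsets responded differently was tested on the difference of their IC changes. No member was called, with 0%, 0.00948% and 0.00948% of all genes called for LYVE1+CX3CR1+ against MHCII+CD11c-, LYVE1+CX3CR1+ against MHCII+CD11c+ and MHCII+CD11c+ against MHCII+CD11c- (edgeR, 0, 1 and 1 genes, with 688, 474 and 642 at an unadjusted p under 0.05, and 12, 11 and 1 called by DESeq2). For *Cxcl2* the IC change in MHCII+CD11c+ cells exceeded that in LYVE1+CX3CR1+ cells by 0.58 on the log2 scale (SE 0.29, adjusted p = 1.0, edgeR). For *Cxcl12* the difference between MHCII+CD11c+ and MHCII+CD11c- cells was 0.55 (SE 1.14, adjusted p = 0.958, edgeR). For *Cxcl13* the LYVE1+CX3CR1+ groups held 1 count or none, and their differences in response could not be fitted with a usable error. Its difference between MHCII+CD11c+ and MHCII+CD11c- cells had an unadjusted p of 0.00765 and an adjusted p of 0.770 (edgeR), with a size that depends on the prior count, since untreated MHCII+CD11c- libraries were at 0.

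Between subsets, the members called were lower in LYVE1+CX3CR1+ cells except *Cxcl16* and *Cxcl14*. Against MHCII+CD11c-, 3 of 9 were called in untreated cells (*Cxcl9*, *Cxcl10* and *Cxcl12*, background 11.4%) and 2 after IC (*Cxcl10* and *Cxcl13*, background 9.77%). Against MHCII+CD11c+, 5 of 9 were called in untreated cells (*Cxcl9*, *Cxcl10*, *Cxcl12* and *Cxcl13* lower, *Cxcl16* higher, background 21.8%) and 4 after IC (*Cxcl9*, *Cxcl10* and *Cxcl13* lower, *Cxcl14* higher, background 19.7%). *Cxcl12* was lower in untreated LYVE1+CX3CR1+ than in MHCII+CD11c- and MHCII+CD11c+ cells by log2 fold changes of -4.48 and -3.33 (SE 0.73 for both, adjusted p = 1.35e-04 and 0.00113, edgeR), and by -5.95 and -4.79 without untreated LYVE1+CX3CR1+ replicate 2. *Cxcl2* after IC was lower in LYVE1+CX3CR1+ than in MHCII+CD11c+ cells by a log2 fold change of -0.57 (SE 0.21), just short of the threshold in this fit (adjusted p = 0.0513, edgeR) and past it in all 8 alternatives, among them DESeq2 and the replicate blocks. It passed in 2 of 6 fits that left out a library of the pair, and was -0.38 without LYVE1+CX3CR1+ replicate 2 (adjusted p = 0.324) and -0.39 without MHCII+CD11c+ replicate 3 (adjusted p = 0.293, both edgeR). After IC the *Cxcl12* differences were -2.33 and -1.73 (SE 1.04 and 0.96) and did not pass, though both did without LYVE1+CX3CR1+ IC replicate 3 (-5.62 and -5.03, adjusted p = 0.0232 and 0.0209, edgeR). Between the MHCII+ subsets 0 of 9 members were called in this fit, before and after IC, against backgrounds of 3.49% and 2.84%, and *Pf4* was called before IC with no filter and with a replicate block by pool (adjusted p = 0.0193 and 0.0127, edgeR). At an unadjusted p under 0.05, *Cxcl13* and *Pf4* differed before and none after IC, and DESeq2 called 0 and 0.

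**Figure D5:**
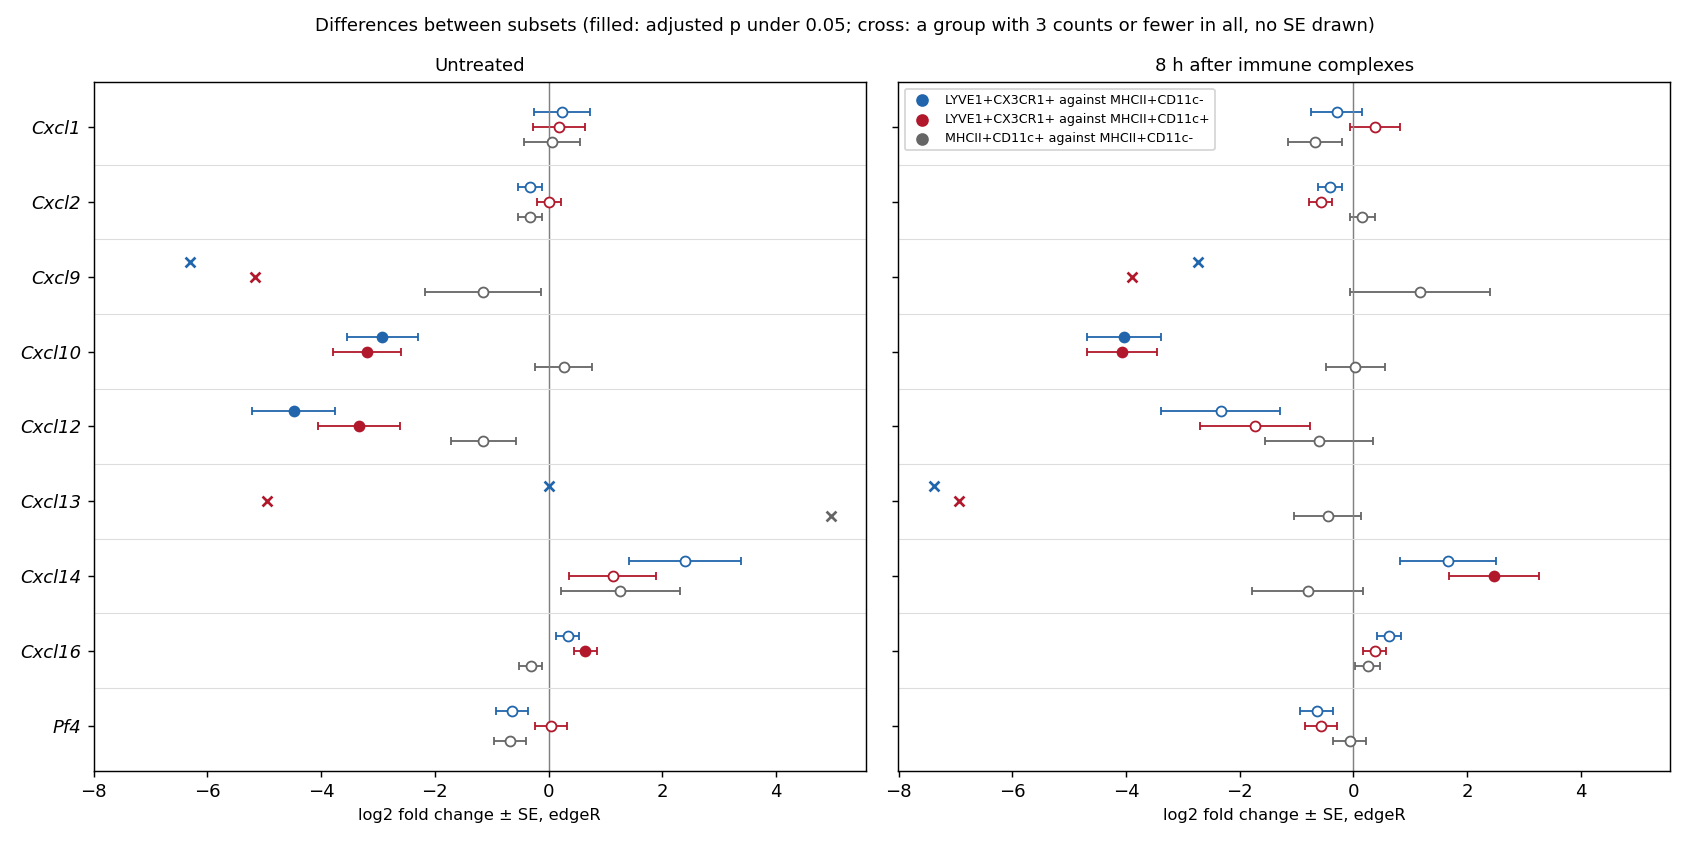
Log2 fold change between subsets (± SE, edgeR) of the 9 tested CXC chemokine genes in untreated cells (left) and after IC (right), with filled points past an adjusted p of 0.05 and crosses, without an SE, where a group held 3 counts or fewer. *Cxcl10* lay near -3 in untreated cells and near -4 after IC in both comparisons of LYVE1+CX3CR1+ cells, and no comparison between the MHCII+ subsets passed. The place of a cross depends on the prior count.

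The CC chemokines, the sister family with another spacing of cysteines, gave a frame for these differences. Of 12 tested, 8 were lower in untreated LYVE1+CX3CR1+ than in MHCII+CD11c- cells, 8 lower than in MHCII+CD11c+ cells, and none higher, with *Ccl6* and *Ccl8* in both sets, where 11.4% and 21.8% of all genes were called in either direction. With IC, 2 CC chemokine genes rose on average, *Ccl6* (log2 fold change 0.94, SE 0.12, adjusted p = 1.27e-05) and *Ccl9* (0.77, SE 0.11, adjusted p = 7.21e-05, both edgeR), and both also rose in LYVE1+CX3CR1+ cells (1.73, SE 0.21, and 1.09, SE 0.19).

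Genes whose log2 CPM followed a member most closely over the 18 libraries were listed as a description, since all libraries share the subsets and treatments. *Cxcl2* was closest to *Osm* (Pearson r = 0.84), *Clec4e* (0.82) and *Hmox1* (0.82), *Cxcl10* to *Jarid2* (0.94), *Cytip* (0.94) and *Phlda1* (0.94), and *Cxcl12* to *Btg2* (0.90), *Mlxip* (0.86) and *Irs2* (0.86). *Osm* encodes the cytokine oncostatin M, *Clec4e* the receptor Mincle and *Btg2* an early-response growth regulator. *Cxcl13* was closest to *Ikbke* (0.90), *Mx1* (0.88) and *Hdc* (0.88), which encode a kinase upstream of IRF3 and IRF7, an interferon-induced antiviral protein and the enzyme that makes histamine. *Cxcl1* was closest to *Tpr* (0.85), *Emilin2* (0.84) and *Nipbl* (0.80), *Cxcl9* to *Ap2a2* (0.90), *Rcc2* (0.82) and *Pml* (0.81), *Cxcl14* to *Atg5* (0.87), with *Fbxo22* (0.85) also among its closest genes, *Cxcl16* to *Atp6v1g1* (0.82), *Umps* (0.81) and *Slc39a8* (0.80), and *Pf4* to *Mepce* (0.81), *Hexim1* (0.81) and *Ap1b1* (0.79). Among the members themselves, *Cxcl1* and *Cxcl2* had r = 0.57, *Cxcl9* and *Cxcl10* 0.59, and *Cxcl10* and *Cxcl14* -0.70.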

How the data were processed

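Bulk total RNA (SMARTer stranded pico kit) of 18 libraries in 6 groups of 3 was analysed. The authors trimmed reads with Trim Galore, checked them with FastQC, aligned them to mm10 with HISAT2, counted them with featureCounts and deposited raw counts per gene symbol. Versions, annotation, strand setting and duplicate handling are not given in the sources used here. The study's mouse counts for untreated subsets imply different mice in each library of a group. For IC libraries the sources used here do not say, and p-values measure the spread between libraries, which may be technical. Intervals and floors cover counting error only.

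From the counts, TMM-scaled CPM and the quasi-likelihood test of edgeR 4.0.16 (R 4.3.3) were computed over all 18 libraries, after filterByExpr (minimum count 10, minimum total 15) left 10550 genes, with Benjamini-Hochberg adjustment per comparison and a threshold of 0.05. SE is the log2 fold change divided by the root of F. Exon lengths were those of all exons of a gene's protein-coding transcripts in GENCODE M21 joined together, and promoters came from RefSeq. The tests were checked on simulated counts. The alternatives were DESeq2 1.42.0 (its size factors in edgeR, and its own Wald test), omission of the filter, only the libraries compared, a replicate block, 1 surrogate variable (sva 3.50.0) and leaving out each library. The 10 genes and all lists were chosen with earlier results of these data known. Named genes were the members, other CXC ligands and receptors, up to 4 called genes per list with the smallest adjusted p, sort genes and the 3 closest genes by correlation. *Adam10* and further markers of other cell types were named after their values were seen. Some genes that these rules select are not reported here. A combined table with the same counts was not used.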

Additional observations from a re-analysis of the deposited data

How the results depend on the processing

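The count of members called moved by more than 1.5 times under few settings. For LYVE1+CX3CR1+ against MHCII+CD11c+ untreated it was 3, of 7 tested, when only the libraries compared were fitted. For MHCII+CD11c+ against MHCII+CD11c- untreated it was 1 with no filter and 1 with a replicate block by pool, and for IC in MHCII+CD11c- cells it was 1 when only the libraries compared were fitted and 1 without both libraries under 400000 counts, an alternative chosen after seeing the data. The causes were not tested. Leaving out 1 library at a time gave 2–3 and 3–5 members for LYVE1+CX3CR1+ against MHCII+CD11c- and MHCII+CD11c+ untreated, 2–3 and 2–5 after IC, 1–3, 0–2 and 0–0 with IC in MHCII+CD11c-, MHCII+CD11c+ and LYVE1+CX3CR1+ cells, and 3–4 in their mean. The log2 fold change of *Cxcl12* with IC in LYVE1+CX3CR1+ cells, not called, ran from -4.32 without IC replicate 3, the only IC library of that subset with a count, to a reversed 0.46 without untreated replicate 2. Mean CPM with other scaling moved by less than 1 SD in all 120 cases. Replicate numbers were not taken to pair the libraries, since the labels do not say so and the correlations of deviations of same-numbered libraries of a treatment (-0.07 to 0.18) were not all over 0.1. As a hint from the data that they may be paired, 15 of 18 libraries correlated best with 1 of their own number. The median correlation was 0.05 for same-numbered and -0.03 for differently numbered libraries of a treatment. A replicate block by pool cannot test IC against untreated cells, so pairing was not checked there. With the replicate block by number, calls over all genes with IC were 60, 120 and 79 in LYVE1+CX3CR1+, MHCII+CD11c- and MHCII+CD11c+ cells, against 49, 112 and 71 without it. Those counts were 154, 280 and 157 by DESeq2, 160, 337 and 250 with no filter, 99, 222 and 133 with a surrogate variable, and 272, 19 and 170 with only the libraries compared. Depth limits the calls of *Cxcl9*, *Cxcl12*, *Cxcl13* and *Cxcl14*, which rest on few counts.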
